A study of Mus musculus with 11 samples.

Results

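The 8 noncoding RNA genes described here are Malat1, Neat1, Gas5, Norad, Snhg1, Snhg8, Snhg12 and Mir17hg, 8 of the 25562 gene symbols in the deposited expression table. They were chosen by name from earlier results of these same libraries, in which Malat1 and Neat1 were lower with one of the treatments, and no value served as a threshold. Their levels and p-values are therefore a description of these libraries and not independent support for a pattern. All 8 passed the filter used for testing, a mean over libraries of 1 TPM or more. TPM is a share of the transcripts in a library corrected for their length.

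The libraries came from CD8+ T cells of C57BL/6 mice, isolated from spleen by a kit and activated in culture. In 4 libraries the cells received 10 µg/mL of recombinant human acyloxyacyl hydrolase (AOAH), a lipase that removes fatty acyl chains from lipids, together with ethanol. In 3 libraries they received 60 µM of the phosphatidylcholine PC16:0-20:4 (PC) with the glycerol PBS buffer of the protein. In 4 vehicle libraries they received ethanol and that buffer alone. All groups shared a pretreatment of 22 h and an activation of 24 h with anti-CD3 (1 µg/mL) and anti-CD28 (0.5 µg/mL). The protocol text gives AOAH before activation and the sample descriptions give it during activation, and the labels likewise differ on plate-bound antibody or beads and leave the use of interleukin-2 unclear. The age and sex of the mice are not stated, and no label says that the libraries of a group came from separate animals or cultures. The spread behind each p-value is thus that of libraries and could be purely technical. The labels give batches 1 to 4, with no PC library in batch 4, and vehicle 4 is labelled for the AOAH comparison alone, so PC was compared with vehicle 1 to 3.

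Long noncoding RNAs act as RNA, without a protein product. Malat1 sits in nuclear speckles, where splicing factors gather, and Neat1 is the scaffold of paraspeckles, nuclear bodies built around RNA-binding proteins. The snoRNA host genes Gas5, Snhg1, Snhg8 and Snhg12 carry in their introns small nucleolar RNAs, which guide the chemical modification of ribosomal RNA, while their spliced remainder is often degraded when it is translated. Norad is a cytoplasmic RNA that binds Pumilio proteins, repressors of messenger RNAs. Mir17hg is the primary transcript of the miR-17-92 cluster, which promotes T cell proliferation and survival.

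The sequences that give these RNAs their roles were read from RefSeq and GENCODE M21, both on GRCm38, another build than the mm39 of the deposited tables. Mir17hg carries 6 miRNA hairpins on chromosome 14, whose main mature arms have 4 different seeds. They are shown because the seed, bases 2 to 8 in capitals, decides which messenger RNAs a miRNA pairs with. The first pair shares one seed, the second pair shares another, and the last 2 have one each.
mmu-miR-17-5p: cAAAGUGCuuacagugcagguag
mmu-miR-20a-5p: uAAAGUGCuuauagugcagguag
mmu-miR-19a-3p: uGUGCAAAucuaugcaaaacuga
mmu-miR-19b-3p: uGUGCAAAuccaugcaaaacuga
mmu-miR-18a-5p: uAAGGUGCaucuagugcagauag
mmu-miR-92a-3p: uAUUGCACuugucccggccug
In GRCm38.p6 these arms lie on the plus strand between chr14:115043684-115043706 (miR-17-5p) and chr14:115044476-115044496 (miR-92a-3p). Levels of the mature miRNAs were not analysed here, and the Mir17hg value below is that of the host transcript.

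Norad is shown by the motif that binds Pumilio proteins, TGTANATA. On the transcript strand of its 4915-base GENCODE M21 transcript (listed there as 2900097C17Rik, on chromosome 2) a script found 11 matches, or 2.24 per kb. Of 14387 annotated long noncoding transcripts of at least 500 bases, 13.5% held the motif at all. By count, 1 held more matches than Norad, and 13 had more matches per kb. Matches 1, 3 and 4, in capitals within 26 bases of transcript, start at bases 651, 1336 and 1523.
Norad match 1: gaagtcctgTGTATATAatatgaaaa
Norad match 3: gcttttcttTGTACATAgtgtatgta
Norad match 4: tgactgctgTGTATATAgtggacaac
The longest transcript of Neat1, 20771 bases, held 4 matches, those of Gas5 and Mir17hg held 1 each, and those of Malat1, Snhg1, Snhg8 and Snhg12 held 0.

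Host genes of snoRNAs often begin with a run of pyrimidines at the first transcribed base, a feature they share with the messenger RNAs of ribosomal proteins. The 15 bases before and 25 bases from the RefSeq start are given for the 4 host genes, with the run that begins at the start in capitals.
Gas5 (downstream start): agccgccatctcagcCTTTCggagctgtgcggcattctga
Snhg1: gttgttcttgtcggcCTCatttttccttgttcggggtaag
Snhg8: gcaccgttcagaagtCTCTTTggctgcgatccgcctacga
Snhg12: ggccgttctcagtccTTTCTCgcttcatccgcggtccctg
These windows of GRCm38.p6 are chr1:161035151-161035190 (Gas5, plus strand), chr19:8723472-8723511 (Snhg1, plus), chr3:123508312-123508351 (Snhg8, minus) and chr4:132308663-132308702 (Snhg12, plus). The run was 5 bases long in Gas5, 3 in Snhg1, 6 in Snhg8 and 6 in Snhg12. Of 32851 RefSeq start windows 10.7% had a run of at least 3, 4.44% of at least 5 and 2.93% of at least 6. Malat1 had a run of 1 base, and the other, upstream Gas5 start had none. The E-box CACGTG, the same on both strands and a motif of MYC among other factors, occurred in 7.15% of the 300-base windows and in none of the windows of Malat1, Gas5, Snhg1, Snhg8 and Snhg12. GENCODE M21 places 10 snoRNA entries within Gas5, 8 within Snhg1, 5 within Snhg12 and 1 within Snhg8, some of them overlapping entries of one snoRNA. The snoRNAs have no poly(A) tail of their own, and their own levels were not analysed here.

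Levels spanned the range from one of the most abundant RNAs of the cell to a low one. Gas5 had the highest mean over the 11 libraries, 795 TPM, at rank 174 of all symbols. Snhg1 followed at 257 TPM, Snhg8 at 208, Malat1 at 190.1, Snhg12 at 86.7, Norad at 68.8 and Neat1 at 40.8 TPM, and Mir17hg came last at 10.7 TPM, rank 7286. Within the vehicle libraries no neighbours in this order overlapped. In PC the order changed: Malat1 (234 to 311 TPM) lay above Snhg8 (219 to 230) and overlapped Snhg1 (257 to 272), and Neat1 (67.6 to 80.3) overlapped Norad (71.8 to 76.7). Together the 8 genes held between 0.142% and 0.155% of all TPM in AOAH, between 0.182% and 0.200% in PC, and between 0.162% and 0.168% in vehicle. Malat1 ends in a genome-encoded A-rich tract in place of a poly(A) tail, and the long isoform of Neat1 likewise, and the labels name oligo(dT) enrichment. How evenly that step captured these RNAs was not tested.

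**Figure D1:**
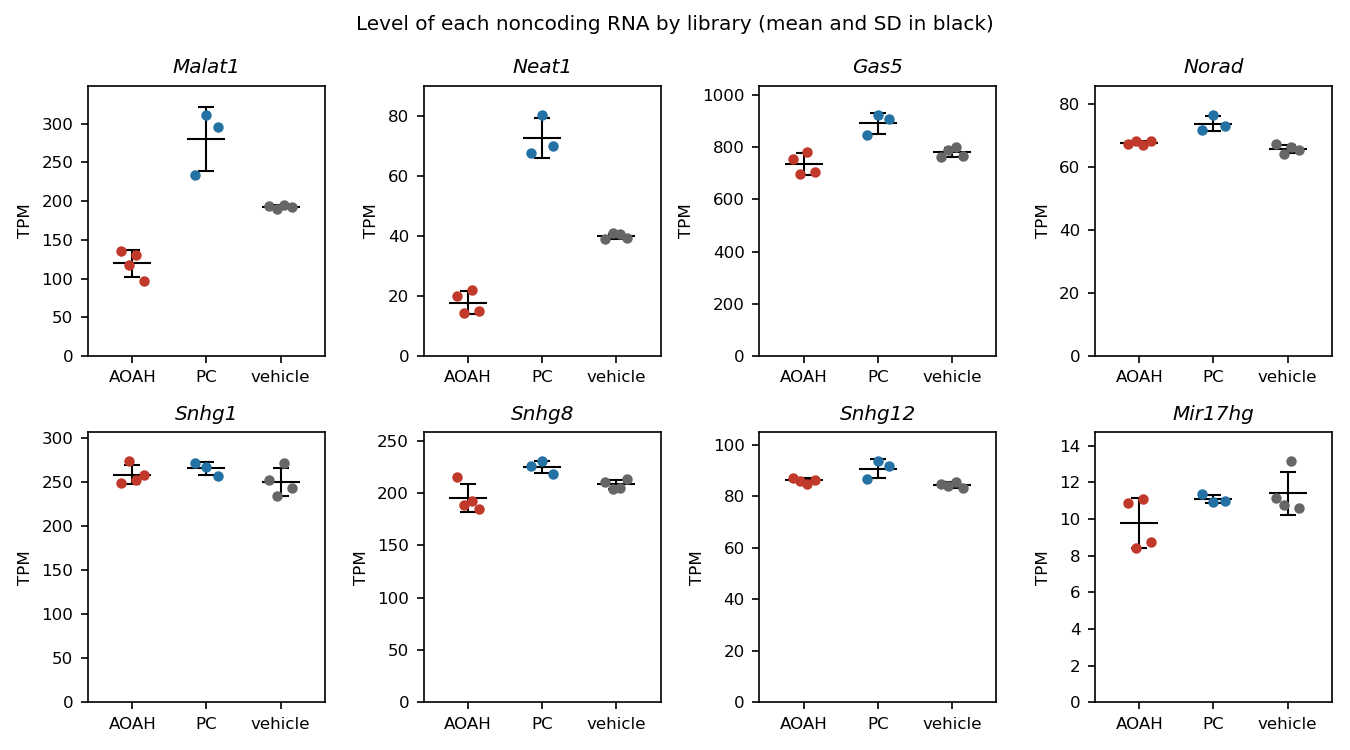
TPM of the 8 noncoding RNAs in each of the 11 libraries, with AOAH, PC and vehicle from left to right and the mean and SD of each group in black. Malat1 and Neat1 are lowest in AOAH and highest in PC with no overlap between groups, while the y axes of the other RNAs, which all start at 0, show smaller differences.

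Malat1 and Neat1 were the RNAs that differed most. Malat1 stood at 135.9, 116.9, 130.0 and 96.6 TPM in AOAH 1 to 4, at 234, 311 and 296 TPM in PC 1 to 3, and at 193.9, 189.7, 194.5 and 192.9 TPM in vehicle 1 to 4. The 3 groups did not overlap, and the vehicle libraries lay within a few TPM of each other while AOAH and PC spread more widely. Group means were 119.8 ± 17.4 TPM in AOAH (SD, n = 4), 280.3 ± 41.1 in PC (n = 3) and 192.7 ± 2.12 in vehicle (n = 4). Neat1 stood at 19.9, 14.2, 21.9 and 15.1 TPM in AOAH, at 67.6, 80.3 and 69.9 TPM in PC, and at 39.0, 40.8, 40.5 and 39.2 TPM in vehicle. Here too every AOAH library was below and every PC library above every vehicle library. Its means were 17.8 ± 3.72 TPM in AOAH, 72.6 ± 6.79 in PC and 39.9 ± 0.919 in vehicle.

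The first comparison asked what AOAH changed. On the scale log2(TPM + 1), which understates the change of low genes, Malat1 fell by 0.69 with AOAH (SE 0.09, limma adjusted p = 0.00106) and Neat1 by 1.14 (SE 0.12, adjusted p = 3.09e-04). These were the 2 of 8 RNAs called, both lower, where 25.2% of the 11561 genes tested were called, 13.1% higher and 12.1% lower. In both RNAs all AOAH libraries lay below all vehicle libraries, which 13.7% of the genes tested did. The fall of Neat1 ranked 70th among all genes and that of Malat1 274th. That both were lower in AOAH in 4 of 4 same-batch pairs follows from the lack of overlap and adds nothing to it. Both were called in all 18 alternatives. In the authors' deposited table, which called 17.1% of its genes, the log2 change of Malat1 was -0.70 (adjusted p = 1.35e-07) and that of Neat1 -1.19 (adjusted p = 5.60e-32), and no other of the 8 was called.

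PC moved the same pair the other way. Against vehicle 1 to 3 Malat1 rose by 0.53 (SE 0.10, limma adjusted p = 0.0155) and Neat1 by 0.84 (SE 0.07, adjusted p = 8.58e-04). Set directly against PC, AOAH had a Malat1 log2 change of -1.22 (95% interval -1.55 to -0.89, limma adjusted p = 3.49e-04) and a Neat1 log2 change of -1.99 (-2.34 to -1.64, adjusted p = 3.99e-05). The AOAH and PC comparisons share vehicle 1 to 3, so the opposite signs are not independent of each other. Neat1 was called against vehicle in all 17 PC alternatives, but Malat1 lost its call without PC 3 (adjusted p = 0.0537), vehicle 1 (0.0547) or vehicle 3 (0.0506).

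Across the 8 RNAs, limma called 5 higher with PC, 5 of 8 beside 19.5% of all genes (8.27% higher, 11.2% lower), and 6 lay wholly above vehicle 1 to 3, as 17.9% of genes did. Snhg12 was the RNA that did so without passing. With batch as a block the number called with PC was 3, since Norad (adjusted p = 0.0868) and Snhg8 (0.0599) no longer passed. The authors' deposited table, which called 13.4% of its genes, called 4: Malat1 (log2 change 0.54, adjusted p = 7.22e-14), Neat1 (0.87, adjusted p = 6.73e-37), Gas5 (0.20, adjusted p = 0.00273) and Norad (0.18, adjusted p = 0.0131). Between AOAH and PC limma called 5, all lower in AOAH, where 45.8% of genes were called, and 5 lay wholly below PC, as 23.9% of genes did.

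**Figure D2:**
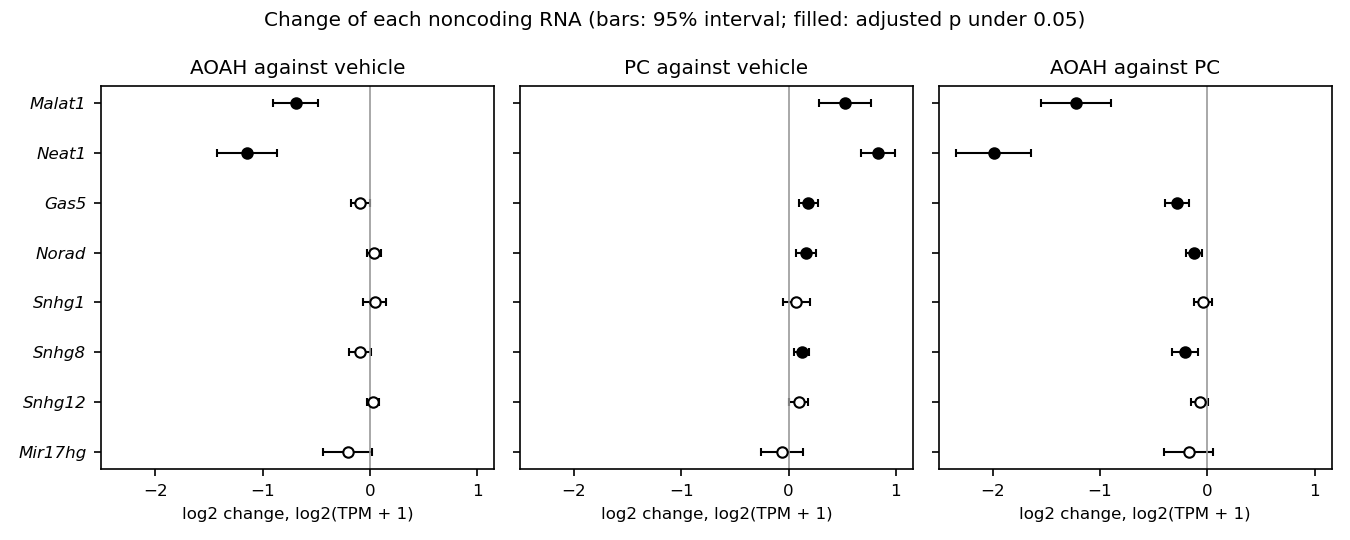
log2 change with 95% interval of each RNA on the log2(TPM + 1) scale in the 3 comparisons, with filled points for limma adjusted p under 0.05. Malat1 and Neat1 lie far to the left with AOAH, against vehicle and against PC, and to the right with PC. The other points lie closer to 0, but Gas5, Norad and Snhg8 are filled with PC and in AOAH against PC.

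Malat1 and Neat1 are neighbours on chromosome 19, with 0 coding genes between them, and their levels had a Pearson r of 0.978 over the 11 libraries, which also share their 3 treatments. The pair did not keep one ratio: Malat1 over Neat1 lay between 5.94 and 8.25 in AOAH, between 3.46 and 4.23 in PC, and between 4.65 and 4.97 in vehicle, with no overlap between the groups. AOAH 2 and AOAH 4 had the lowest levels of both RNAs.

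**Figure D3:**
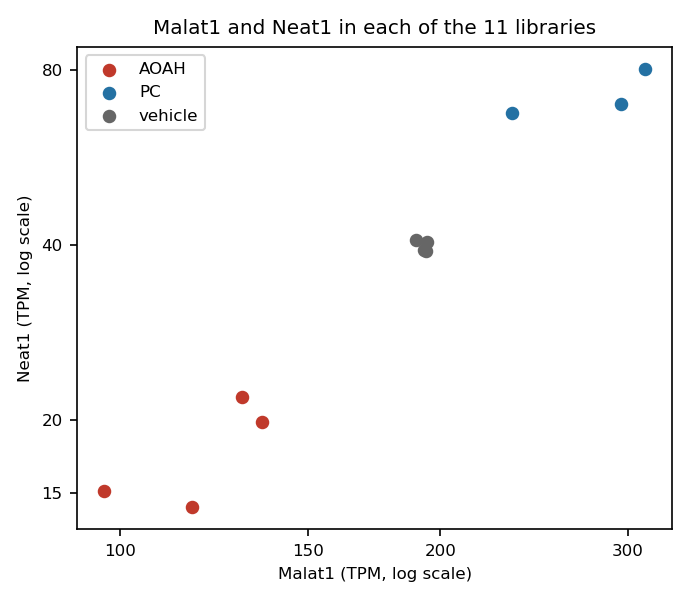
Malat1 against Neat1 in TPM, both axes logarithmic, 1 point per library coloured by group. AOAH lies at the lower left, PC at the upper right and the 4 vehicle libraries close together between them.

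Markers of the cells moved alongside. The 8-gene CD8 T cell list summed to 2337 to 2359 TPM with AOAH, 2993 to 3036 with PC and 2548 to 2613 with vehicle. These sums ran in the same order as Malat1 and Neat1. Of the 8 genes 5 fell and 0 rose with AOAH, while 8 rose with PC, beside 25.2% and 19.5% of all genes called. Trac did not follow that order, with a mean of 268 TPM in AOAH and 267 TPM in vehicle. Cd8a ranged over 331 to 446 TPM where Cd4 ranged over 0.11 to 0.42 TPM. The B cell list of 8 genes summed to 131 to 140 TPM with AOAH and 167 to 173 TPM with PC. With vehicle the list summed to 151 to 157 TPM. Nearly all of these sums was Ighm. Of the other chains of the B cell receptor in the list, Cd79a stood at 0.15 to 0.50 TPM and Cd79b at 5.42 to 9.2 TPM. Ighm rose with PC, but Cd79b went the other way, with all PC libraries below all vehicle libraries. The mean of Cd79b was 6.45 TPM in PC and 8.36 TPM in vehicle 1 to 3, a change that did not pass. The myeloid list summed to at most 3.35 TPM and the erythroid and platelet list to at most 3.47 TPM in any library. The NK list summed to 81.3 to 87.8 TPM with AOAH, 79.0 to 84.7 TPM with PC, and 97.2 to 101.9 TPM with vehicle, nearly all of it Eomes, which CD8 T cells also express. Genes of the mitochondrial genome held 3.39% to 3.62% of TPM with overlapping groups, and the number of genes at 1 TPM or more was 11423 to 11497 with AOAH, 11641 to 11739 with PC, and 11569 to 11633 with vehicle. The part of these values in the results was not tested. In bulk RNA, fewer cells of a kind and less RNA per cell cannot be told apart.

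Messenger RNAs for proteins of paraspeckles and speckles were counted against all genes, of which 13.1% were called higher and 12.1% lower with AOAH, and 8.27% higher and 11.2% lower with PC. Of 16 tested paraspeckle proteins 6 rose with AOAH, 0 fell and 10 did not pass, with a median log2 change of 0.09 against 0.01 for all genes. Among them were Nono (0.12), a core paraspeckle protein, at 326 TPM in AOAH and 301 TPM in vehicle, Hnrnpa1 (0.16), a splicing repressor, and Cpsf6 (0.19), a cleavage factor subunit. With PC 3 of the 16 fell and 0 rose (median -0.06, against -0.01 for all genes), among them Cpsf6 (-0.15) and Nono (-0.12). Of 18 speckle proteins 6 rose and 3 fell with AOAH, a median of 0.06, with Srsf2 (0.11) and Tra2a (0.14), splicing activators, among those that rose, and Clk1 (-0.35), a kinase of splicing factors, and Srrm2 (-0.40), a speckle scaffold, among those that fell, but under quantile normalization 0 rose and 4 fell. With PC 5 of the 18 fell and 0 rose, a median of -0.07, among them Srsf7 (-0.12), Srrm1 (-0.27), Srsf1 (-0.15) and Pnn (-0.17), all of them splicing factors or their partners. In the direct comparison of AOAH with PC 9 paraspeckle proteins were higher and 1 lower, and 9 speckle proteins higher and 5 lower, where limma called 24.3% of genes higher and 21.5% lower.

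The 4 snoRNA host genes moved less. Gas5 stood at 756, 698, 783 and 705 TPM in AOAH, 848, 924 and 907 TPM in PC, and 765, 791, 802 and 767 TPM in vehicle. PC lay above both other groups without overlap, and AOAH overlapped vehicle. Gas5 rose by 0.18 with PC (SE 0.04, limma adjusted p = 0.0156), a call lost without PC 3 (adjusted p = 0.0559) or vehicle 1 (0.0571). With AOAH its log2 change was -0.09 (adjusted p = 0.127). Gas5 was lower in 4 of 4 same-batch pairs, a count given without its share over all genes. It was not called with batch as a block, but was called under quantile normalization (0.0246) and without AOAH 3 (0.0379). Between AOAH and PC it differed by -0.28 (adjusted p = 0.00207), called in all 17 alternatives.

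Snhg8 stood at 215, 188, 192 and 185 TPM in AOAH, 226, 230 and 219 TPM in PC, and 211, 204, 205 and 213 TPM in vehicle. AOAH 1 lay above every vehicle library and the other AOAH libraries below, while all PC libraries were higher. With PC it rose by 0.12 (SE 0.03, limma adjusted p = 0.0296), with AOAH it changed by -0.10 (adjusted p = 0.158, and 0.00908 without AOAH 1), and AOAH and PC differed by -0.21 (adjusted p = 0.0125). The authors' deposited table gave a log2 change of 0.14 with adjusted p = 0.572, and limma lost the call with PC in 8 of 17 alternatives.

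Snhg1 stood at 249, 273, 253 and 258 TPM in AOAH, 272, 268 and 257 TPM in PC, and 253, 234, 272 and 243 TPM in vehicle, with all groups overlapping. Its log2 change was 0.05 with AOAH (95% interval -0.06 to 0.15, limma adjusted p = 0.526), 0.07 with PC (-0.06 to 0.20, adjusted p = 0.406) and -0.04 between AOAH and PC (-0.13 to 0.05, adjusted p = 0.409). Snhg12 stood at 87.3, 86.1, 84.7 and 86.5 TPM in AOAH, 86.7, 93.5 and 91.9 TPM in PC, and 84.9, 83.9, 85.5 and 83.0 TPM in vehicle. Its log2 change with AOAH was 0.03 (95% interval -0.03 to 0.09, limma adjusted p = 0.423) and with PC 0.10 (0.01 to 0.19, adjusted p = 0.125). All PC libraries of Snhg12 lay above all vehicle libraries, but the change did not pass. Between AOAH and PC the log2 change of Snhg12 was -0.07 (limma adjusted p = 0.111). It passed with PC in 1 fit over all 11 libraries (adjusted p = 0.0291), and between AOAH and PC under quantile normalization (0.0147) and without PC 1 (0.0341).

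Of the other noncoding snoRNA hosts, 13 were tested with AOAH and 12 with PC. With AOAH Snhg5 (0.18) and Snhg6 (0.17) rose and Snhg20 (-0.39) fell, a share near the 25.2% of all genes called, and the median was 0.02. With PC Snhg6 (0.14) and Snhg10 (0.75) rose and Snhg7 (-0.25) fell, beside 19.5% of all genes called, and the median was 0.04, while TMM rescaling gave 3 higher and 0 lower. Snhg10 is a low gene, at a mean of 2.30 TPM in AOAH, 2.47 TPM in PC and 1.07 TPM in vehicle 1 to 3, and vehicle 4, which is outside the PC comparison, held 3.07 TPM. Beside the same shares, of 16 protein-coding snoRNA hosts 3 rose and 6 fell with AOAH, among them Ncl (0.19), nucleolin, and Tpt1 (-0.17), the translationally controlled tumour protein, at 3145 TPM in AOAH and 3533 TPM in vehicle, while 4 rose and 1 fell with PC, among them Tpt1 (0.29), Rpl12 (0.13) and Rps3 (0.12), ribosomal proteins, and the fall of Ncl (-0.19). With AOAH 4 of these rose and 2 fell under TMM rescaling, and 3 rose and 4 fell under quantile normalization, and with PC 4 rose and 3 fell under quantile normalization.

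Of 14 tested genes for the proteins that process and assemble snoRNA particles, 10 rose and 0 fell with AOAH (median 0.16; 7 rose under quantile normalization), beside 13.1% of all genes higher, among them Ruvbl2 (0.23), an assembly ATPase, Nop56 (0.16), a core protein of box C/D particles, and Nhp2 (0.15) and Gar1 (0.16), core proteins of box H/ACA particles. With PC 0 rose and 4 fell (median -0.10), beside 11.2% of all genes lower: Znhit3 (-0.25), an assembly factor, Nolc1 (-0.19), a nucleolar chaperone, Nop10 (-0.13) and Nop58 (-0.09), core proteins, while TMM rescaling left 2. Between AOAH and PC 13 of 14 were higher in AOAH, beside 24.3% of all genes, with a median of 0.23 against 0.00 for all genes. Nop56 is counted here and among the protein-coding snoRNA hosts.

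**Figure D4:**
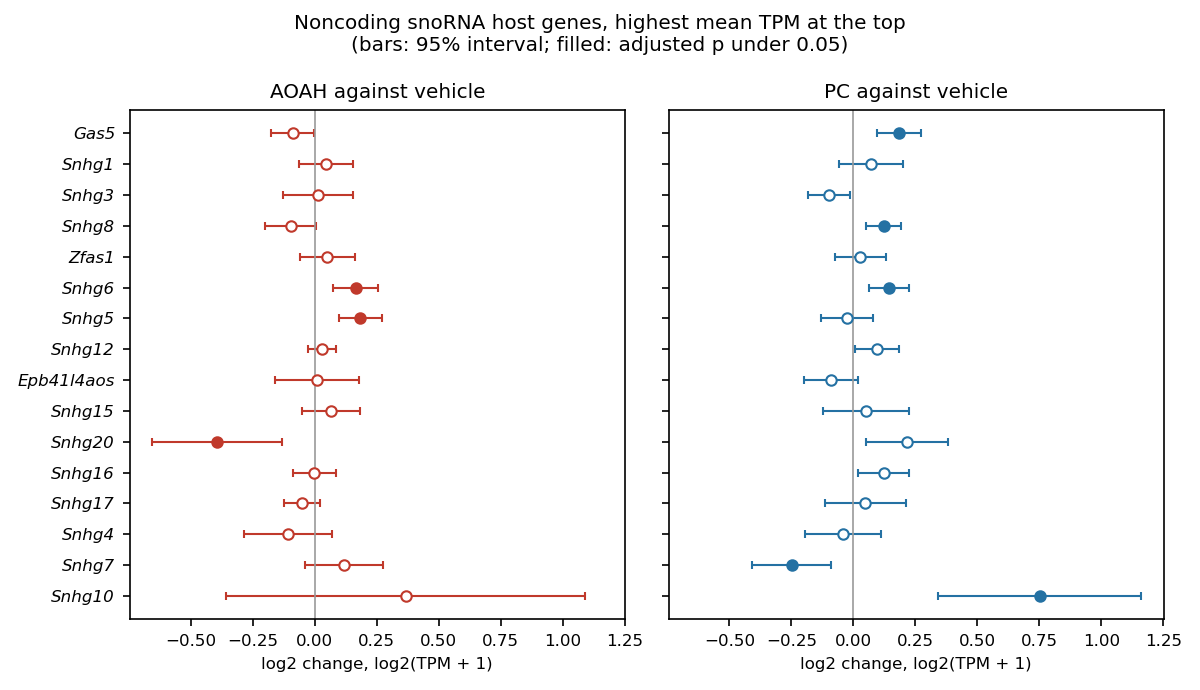
log2 change of 16 noncoding snoRNA hosts, the 4 described and 12 others, with AOAH and with PC against vehicle, ordered by mean TPM with bars for the 95% interval. Filled points, which passed limma at an adjusted p under 0.05, lie on both sides of 0, and in each panel most are open.

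The degradation machinery for such transcripts was tested as a list, since spliced host RNAs are among its textbook substrates. Of 16 nonsense-mediated decay factors 4 rose and 1 fell with AOAH, and 2 rose and 1 fell with PC, shares near the 25.2% and 19.5% of all genes called, with medians of 0.02 and -0.03, and under quantile normalization 1 rose and 1 fell with each treatment. The exon junction proteins Rbm8a (0.16), Eif4a3 (0.10), Magoh (0.10) and Magohb (0.16) rose with AOAH, and Magohb (0.16) and Smg9 (0.22) rose and Upf3b (-0.24) fell with PC. Of 7 tested messenger RNAs known as decay targets 1 rose and 3 fell with AOAH (median -0.18), beside 25.2% of all genes called, and 6 rose and 0 fell with PC (median 0.67), beside 19.5%. Trib3, a stress-induced pseudokinase, averaged 3.65 TPM in AOAH, 10.4 TPM in PC and 4.94 TPM in vehicle, and Ddit3, a stress transcription factor, 15.2 TPM, 33.6 TPM and 20.9 TPM in the same order. Targets such as Trib3 and Ddit3 are also induced by the stress regulator ATF4, and the parts of decay and of ATF4 were not tested. Atf4 is itself in the list, as the 1 that rose with AOAH (0.10), and it also rose with PC (0.15).

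Norad differed little between the groups. It stood at 67.4, 68.3, 67.2 and 68.3 TPM in AOAH, 71.8, 76.7 and 73.3 TPM in PC, and 67.3, 64.1, 66.6 and 65.5 TPM in vehicle. PC lay above both other groups, and AOAH overlapped vehicle. Norad rose by 0.16 with PC (SE 0.04, limma adjusted p = 0.0308) and was 0.12 lower in AOAH than in PC (log2 change -0.12, adjusted p = 0.0149), while AOAH and vehicle differed by 0.04 (95% interval -0.02 to 0.10, adjusted p = 0.320). The PC call was lost in 7 of 17 alternatives, and the AOAH against PC call without PC 2 (adjusted p = 0.0551). Of 4 tested protein partners 0 passed with AOAH and 1 with PC, beside 25.2% and 19.5% of all genes called. The 1 was Rbmx (0.18), a nuclear RNA-binding protein.

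Mir17hg stood at 10.9, 8.43, 11.1 and 8.76 TPM in AOAH, 11.38, 10.93 and 10.99 TPM in PC, and 11.2, 10.8, 13.2 and 10.6 TPM in vehicle. AOAH 2 and AOAH 4 were the lowest of all libraries, and the groups overlapped. With AOAH its log2 change was -0.21 (95% interval -0.44 to 0.02, limma adjusted p = 0.172), and with PC -0.06 (-0.26 to 0.13, adjusted p = 0.632). Mir17hg was lower with AOAH in 4 of 4 same-batch pairs, a count given without its share over all genes. Of 11 tested genes that regulate or process it, 5 rose and 0 fell with AOAH (median 0.13), beside 13.1% of all genes higher, and 0 rose and 7 fell with PC (median -0.22), beside 11.2% of all genes lower. E2f1, a cell cycle transcription factor known to bind the host promoter, averaged 40.2 TPM in AOAH, 22.7 TPM in PC and 33.9 TPM in vehicle, and Drosha, which cuts the hairpins from the transcript, rose with AOAH (0.25), as did E2f3 (0.36) and E2f2 (0.25). With PC Xpo5 (-0.22), which exports the hairpins from the nucleus, and Dgcr8 (-0.22), the partner of Drosha, fell. Of 11 tested targets of the cluster 1 rose and 4 fell with AOAH (median -0.12), beside 25.2% of all genes called, and 2 rose and 1 fell with PC (median 0.06), beside 19.5%. E2f1 is counted in this list and among the regulators, and Cdkn1a in this list and among the decay targets. Tgfbr2, a receptor for TGF-beta, averaged 23.3 TPM in AOAH, 43.5 TPM in PC and 33.3 TPM in vehicle, Socs1 fell with AOAH (-0.52), and Cdkn1a, a cell cycle inhibitor, rose with PC (0.83).

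Other noncoding RNAs were tested as a list of 17 genes. With AOAH 1 rose and 2 fell (median -0.08), beside 25.2% of all genes called, and with PC 4 rose and 0 fell (median 0.10), beside 19.5% of all genes called. Mir142hg, the host of the blood cell miRNA miR-142, stood at 70.8, 61.2, 69.6 and 52.1 TPM in AOAH, 117.6, 139 and 125 TPM in PC, and 101.9, 111.7, 104.5 and 102.9 TPM in vehicle, without overlap between groups, the same order as Malat1. It fell by 0.73 with AOAH (limma adjusted p = 6.37e-04) and rose by 0.26 with PC (adjusted p = 0.0365). Mirt1, at 0.33 to 0.57 TPM in AOAH and 1.47 to 1.84 TPM in vehicle, reached the filter of 1 TPM through its vehicle libraries alone, so its call as lower carries no weight. The 1 that rose was Rpph1, the RNA of ribonuclease P (0.19, limma adjusted p = 0.0416), a call lost under TMM rescaling and under quantile normalization. Mir22hg (0.87), Sra1 (0.21) and Mir155hg (0.27), the host of a miRNA induced on T cell activation, rose with PC.

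The members differed in which genes varied most like them over the 11 libraries, among 8599 genes averaging 5 TPM or more, by Pearson r. All points share 3 treatments, so a large r is a description of the treatment pattern. Malat1 was closest to Arhgef1, a guanine nucleotide exchange factor (0.986), and Brd2, a chromatin reader (0.985). Neat1 was closest to H2-T23, a nonclassical MHC gene (0.994), and Trp53inp1, a p53-induced gene (0.993), which averaged 7.77 TPM in AOAH, 24.0 TPM in PC and 15.8 TPM in vehicle. Gas5 was closest to Irf2bp2 (0.966) and Zdhhc18, a palmitoyltransferase (0.956), and Snhg8 to Rbm12b2 (0.965) and Rinl (0.938). Norad was closest to Adamts6 (0.970) and Ccl4 (0.967), a chemokine at 1325 TPM in AOAH, 1672 TPM in PC and 1217 TPM in vehicle, and Snhg12 to Norad (0.923) and Il2 (0.922). Snhg1, whose nearest were Cab39 (0.891) and Tmbim1 (0.881), and Mir17hg, with Bscl2 (0.913) and Letmd1 (0.880), had the lowest best values. Over the 28 pairs of members r ran from -0.02 to 0.978 with a median of 0.572, and 7 pairs were over 0.8.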

How the data were processed

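Polyadenylated RNA of 11 libraries was sequenced as paired reads with molecular identifiers, and ERCC spike-in RNA was added, per the labels' protocols. The authors deposited log2 values of TPM plus 1, made with RSEM on mm39 per the submitters' processing notes. For each treatment against vehicle the authors deposited DESeq2 output, with a signal (the base mean of size-factor-scaled counts), a log2 fold change, a Wald score and p-values. No aligner, annotation, tool version or use of the molecular identifiers is named in the sources used here. TPM keeps no depth, so that of each library is unknown. The repertoire table was not used here.

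Values were tested with limma 3.58.1 in R 4.3.3 (mean-variance trend, robust, two-sided) on log2(TPM + 1) with a pseudocount of 1, for genes averaging 1 TPM or more in the libraries compared, and Benjamini-Hochberg adjustment over all of them, called at 0.05. The code was tested on simulated data. AOAH was compared with 4 vehicle libraries, PC with vehicle 1 to 3, and AOAH with PC. Alternatives were other pseudocounts and filters, other scalings, 1 fit over all libraries, batch as a block and leaving out each library. Members and gene lists were chosen with earlier results of these data known. All 8 members were named, up to 4 called genes of lowest adjusted p from each list, and the 2 genes of highest correlation with each member, though results for some genes under this rule are not reported here. List counts leave the members out. Norad was matched to its older symbol through a RefSeq synonym.

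Pairing comes from the batch labels. The correlation of deviations from group means was -0.0033 on average over 10 pairs of the same batch (-0.0794 to 0.118), and 0.0011 over 30 pairs of different batches (-0.125 to 0.140).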

Additional observations from a re-analysis of the deposited data

Results flagged for a closer look

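Of 41 groups of 4 libraries screened, 5 had a library whose gap to its nearest neighbour took up most of the range of the group. Chance alone flags about 1 in 20 groups, and none of the 5 was among the 8 noncoding RNAs described above. Snhg17 stood at 38.1 TPM in AOAH 3, the highest of its group. Zfas1 stood at 214.59 TPM in AOAH 1, against 190.48 to 193.33 TPM in the other AOAH libraries. Snhg7 stood at 21.18 TPM in vehicle 1, and Epb41l4aos at 92.63 TPM in vehicle 3, each the highest of its group. Snhg9 stood at 27.06 TPM in vehicle 4 and was listed at 0 in the other 10 libraries.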

How the results depend on the processing

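Of 416 results for single RNAs under another setting, 386 kept their direction and their side of the threshold, 21 lost a call, 6 gained one and 3 changed sign. The 3 that changed sign were never called: with AOAH under quantile normalization Snhg1 had a log2 change of -0.00549 and Snhg12 of -0.0152, and with PC the log2 change of Mir17hg was -0.116 to 0.0162 as one library was left out, the highest without vehicle 3. The number of the 8 RNAs called with PC, 5, was 3 with no filter and 3 with batch as a replicate block. Leaving out one library gave 2 to 3 called with AOAH, 1 to 4 with PC and 4 to 6 between AOAH and PC. The lowest with PC, 1 without vehicle 1, left Neat1, and it was 2 without PC 3, 2 without vehicle 3, 3 without PC 2 and 3 without vehicle 2. Batch as a block changed no other call of these 8. Gene lists were counted again under the scalings after the data were seen. TPM is a share of each library, depth is unknown, and a difference in total RNA per cell cannot be seen.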
